A study of Mus musculus with 19 samples.

Results

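Gfap, Aqp4, Slc1a2, Slc1a3, Aldh1l1, Gja1, Glul and S100b, 8 genes used to recognise astrocytes, were followed through a ribosome pulldown designed for another cell type, the cholinergic neurons of the mouse spinal cord. They were taken by symbol from the 50559 genes of the deposited count table, and all 8 had counts in all 18 immunoprecipitates (IPs) and in the input. The spinal cords came from 10-wk-old male ChAT-Cre;RiboTag fx/+ mice on a C57BL/6J background, called wild-type by the study and kept under 12:12 h light and dark. Both alleles were carried by every mouse: the Cre recombinase is driven by the choline acetyltransferase gene, and where it has been active the floxed RiboTag allele puts a hemagglutinin (HA) tag on a ribosomal protein. Antibody against HA then pulls down tagged ribosomes with the mRNA on them. Groups differed only in the Zeitgeber time (ZT, hours after lights on) of collection: ZT0, ZT4, ZT8, ZT12, ZT16 and ZT20, each with 3 biological replicates. The input was a single library of homogenate RNA from before the pulldown, pooled, and it had no replicate. All cells in which the ChAT promoter was ever active carry the tag, so the pulldown is a model of that lineage rather than of motor neurons alone. No IP from mice without Cre was analysed here.

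Astrocytes are the glia that take up synaptic glutamate and potassium, hold water channels on the endfeet that wrap blood vessels, join their cytoplasm through gap junctions and turn glutamate into glutamine. In a neuronal pulldown their transcripts are read as a measure of RNA from cells that lack the tag, and a gene that is low in the IP and high in the input is called depleted. The value of each marker for that purpose differs with how far the gene is limited to astrocytes. S100b is also known from oligodendrocytes and Schwann cells, and Glul from oligodendrocytes.

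Gfap was the gene the study's own quantitative PCR used to follow astrocyte RNA, and its forward primer shows which part of the transcript that assay reads. The primer is given here 5′ to 3′, all in lower case since it matched without a difference.
Gfap forward primer: cacctacaggaaattgctggagg
Its 23 bases matched 1 gene, at chr11:102893048-102893070 (GRCm38) on the minus strand, in exon 6 and in 2 of the 3 annotated Gfap transcripts. The count table has 1 value per gene and does not separate those transcripts.

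On GRCm38.p6 the 8 genes, all protein coding, lie on 7 chromosomes. Gfap spans chr11:102887336-102897200, Aqp4 chr18:15389394-15410982, Slc1a2 chr2:102658239-102790784 and Slc1a3 chr15:8634124-8710807. Aldh1l1 spans chr6:90550768-90599171, Gja1 chr10:56377300-56390419, Glul chr1:153899929-153909723 and S100b chr10:76253836-76261319. Exons of Slc1a2, Aldh1l1 and Glul overlap those of an antisense or neighbouring gene by 93 to 332 bases. An overlap of Aldh1l1 (105 bases) and one of Glul (93 bases) are on the same strand, where strand cannot separate the genes. For the opposite-strand overlaps, whether the counting used strand is not given in the sources used here. A small part of the counts of these 3 genes therefore cannot be assigned with certainty. Gfap, Aqp4, Slc1a3, Gja1 and S100b have no such overlap.

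The depth was 6302150 to 22406844 counts per IP and 15239792 for the input. The cell type of the IPs was checked on 7 cholinergic neuron genes. Levels are counts-per-million values (CPM), scaled between libraries by the trimmed mean of M values (TMM). Together these genes stood at 450 CPM in the input and between 4250 and 5080 CPM in the IPs, and 6 of the 7 met the rule for enrichment given next. The input carries the same cell type label as the IPs, but these levels and the study's methods make it whole spinal cord. The exception among the 7 was Chat, the gene that drives Cre, with a mean of 39.6 CPM over the IPs. It exceeded its input level of 12.7 CPM in 17 IPs but fell to 8.35 CPM in ZT8 replicate 2. That library was also the lowest IP for Slc18a3, Ache and Isl1, though not for Slc5a7, Mnx1 or Prph. Prph averaged 2990 CPM over the IPs, so the summed level was mostly Prph.

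Members were first compared with the input. A gene was called depleted where the mean CPM of the IPs was at least 2-fold below the input and all 18 IPs were below it, and enriched for the opposite. With 1 input library there is no test of this comparison. Of 21169 genes compared, 21.1% were depleted and 11.6% enriched, and the median log2 ratio of IP to input over all of them was -0.27. Of the 8 members, 7 were depleted, 0 were enriched and 1, S100b, was neither. The median log2 ratio of the members was -3.99. In bulk RNA, the cells that a transcript came from cannot be told apart, so RNA of cells with and without the tag is not separated.

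Slc1a2 and Slc1a3 encode the astrocyte glutamate transporters GLT-1 and GLAST. Slc1a2 was at 1380 CPM in the input and averaged 81.5 ± 10.6 CPM over the IPs (SD, n = 18), a log2 ratio of -4.08. Its lowest IP stood at 58.7 CPM, the median at 79.8 CPM and the highest at 104 CPM, so that the whole range was far below the input. Slc1a3 had the lowest level of the members in the IPs. Its input level was 64.9 CPM (95% Poisson interval 61.3 to 68.7, for counting error only) and its mean over the IPs was 1.91 ± 0.834 CPM (SD, n = 18), with a lowest, median and highest IP of 0.491, 1.65 and 3.75 CPM. The log2 ratio was -5.09. Slc1a3 rested on 11 to 59 counts per IP, and its coefficient of variation over the IPs, 43.7%, stood beside 21.3% from counting alone.

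Aqp4, the water channel of astrocyte endfeet, and Gja1, which encodes the gap junction protein connexin 43, were the most depleted members after Slc1a3. Aqp4 was at 276 CPM in the input and averaged 8.19 ± 1.45 CPM over the IPs (SD, n = 18; lowest 5.53, median 8.17, highest 10.9), a log2 ratio of -5.07. Gja1 was at 226 CPM in the input and averaged 9.32 ± 1.49 CPM over the IPs (SD, n = 18; lowest 6.04, median 9.85, highest 12.3), a log2 ratio of -4.60. Neither gene came near its input level in any library.

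Gfap encodes the intermediate filament protein that gives astrocytes their classic stain. It was at 888 CPM in the input and averaged 59.5 ± 10.7 CPM over the IPs (SD, n = 18), with a lowest, median and highest IP of 41.5, 60.2 and 77.8 CPM. The log2 ratio was -3.90, and single IPs lay between -4.42 and -3.51. The IPs thus held 6.7% of the input level of Gfap.

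The metabolic members kept more of their input level. Aldh1l1, a folate enzyme used widely to mark astrocytes, was at 51.8 CPM in the input and averaged 8.73 ± 1.79 CPM over the IPs (SD, n = 18; lowest 5.67, median 8.58, highest 12.2), a log2 ratio of -2.57. Glul, glutamine synthetase, was at 1400 CPM in the input and averaged 413 ± 25.6 CPM over the IPs (SD, n = 18; lowest 373, median 411, highest 482), a log2 ratio of -1.77. Glul was the steadiest member, with a coefficient of variation of 6.21% over the IPs.

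S100b, a small calcium-binding protein, did not behave as the label of an astrocyte marker depleted by the pulldown would have it. It was at 600 CPM in the input (95% Poisson interval 589 to 611) and at 829 ± 159 CPM in the IPs (SD, n = 18), with a lowest, median and highest IP of 597, 817 and 1230 CPM. The log2 ratio was 0.47, and 17 of 18 IPs were above the input; the remaining IP, at 597 CPM, lay within the counting interval of the input. At 1.38-fold the mean stayed under the 2-fold rule. The value also moved with the scaling: by library totals in place of TMM the ratio of S100b was 0.14, while the median of all genes moved from -0.27 to -0.59. S100b stood at the 71.3rd percentile of the ratios of all genes compared.

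**Figure D1:**
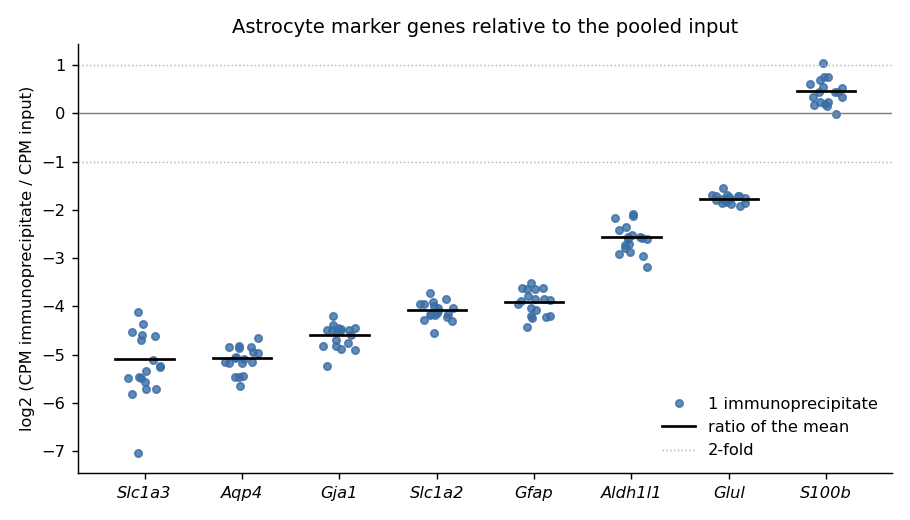
Log2 ratio of each of the 18 IPs (points) to the pooled input for the 8 members, in order of the ratio of the mean IP (bars); the solid line marks the input and the dotted lines 2-fold. The IPs of 7 members lie below the lower dotted line, from -7.05 for 1 library of Slc1a3 to -1.54 for Glul, whereas those of S100b lie between -0.01 and 1.04.

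In order of the ratio, from lowest to highest, the members were Slc1a3, Aqp4, Gja1, Slc1a2, Gfap, Aldh1l1, Glul and S100b. The first neighbours could not be separated: Aqp4 exceeded Slc1a3 by 0.01 on the log2 scale and in 11 of 18 IPs. Gfap exceeded Slc1a2 by 0.18 and in 13 of 18 IPs, again with overlapping ranges. Gja1 was above Aqp4 in 16 of 18 IPs, and Slc1a2 above Gja1 in 18 of 18 although their ranges overlapped. Above Gfap the order was clear in all IPs. Aldh1l1 lay 1.33 above Gfap, Glul 0.80 above Aldh1l1 and S100b 2.23 above Glul on the log2 scale, in each case in 18 of 18 IPs and with no overlap of the ranges.

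The members were then set against Gfap within each library, a ratio on which scaling between libraries has no effect. It gives the order of the input ratios in another form and is no separate result. For every Gfap count the input held 1.55 counts of Slc1a2 and the IPs held 1.18 to 1.83, with 13 IPs below the input and 5 above it. Slc1a2 and Gfap were thus in nearly the same proportion before and after the pulldown. Aqp4 had 0.31 counts per Gfap count in the input and 0.089 to 0.224 in the IPs, lower in 18 of 18. Slc1a3 was likewise lower in 18 of 18 IPs, at 0.0118 to 0.0673 beside 0.0731 in the input. Gja1 was lower in 17 of 18, at 0.101 to 0.296 beside 0.255.

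The other 3 members were higher relative to Gfap in every IP than in the input. Gfap itself stood at the 2.5th percentile of the ratios of all genes compared, so a rise relative to it is what most genes show. Aldh1l1 had 0.0584 counts per Gfap count in the input and 0.0949 to 0.222 in the IPs. Glul had 1.58 in the input and 5.17 to 9.26 in the IPs. S100b had 0.676 in the input and 9.44 to 25.5 in the IPs, with its lowest value in ZT0 replicate 3 and its highest in ZT8 replicate 2. How many of all genes had all 18 IPs on the same side of the input was not counted, so the members are given singly.

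**Figure D2:**
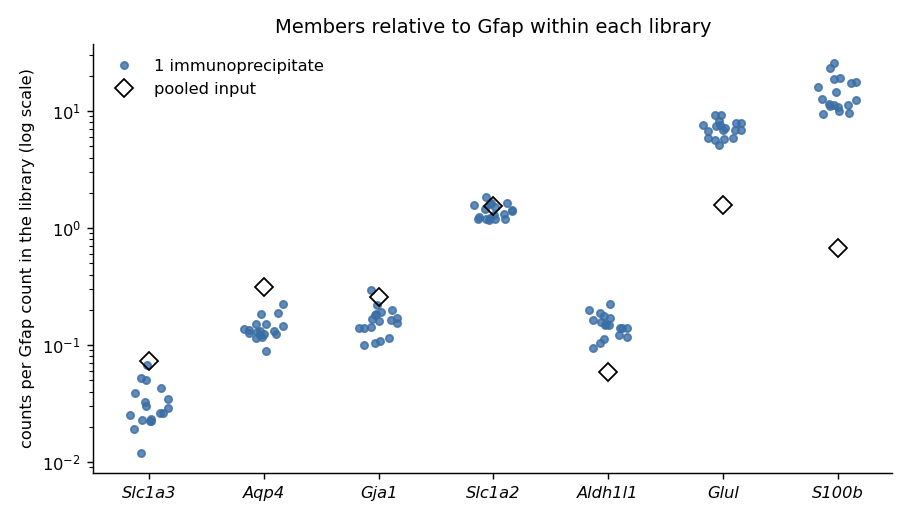
Counts of each member per Gfap count in the same library, on a log axis, for the 18 IPs (points) and the pooled input (diamonds). Slc1a2 lies around the input value of 1.55, Aqp4 and Slc1a3 lie below theirs in all IPs, and Aldh1l1, Glul and S100b lie above theirs in all IPs.

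As a share of all counts, the 8 members made up 0.604% of the input and 0.117 to 0.17% of an IP. Without S100b and Glul the remaining 6 made up 0.357% of the input and 0.0128 to 0.0204% of an IP. S100b alone supplied 12.3% of the members' counts in the input and 50.1 to 70% of them in the IPs. A sum over all 8 genes was therefore mostly a readout of S100b in the IPs and mostly of other genes in the input.

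Levels were compared between genes per kilobase of exon (CPM per kb). In the input the order was Glul at 421, S100b at 404, Gfap at 211, Slc1a2 at 105, Aqp4 at 44.3, Gja1 at 22, Aldh1l1 at 11.5 and Slc1a3 at 7.6 CPM per kb. In the mean of the IPs S100b came first at 559 CPM per kb, followed by Glul at 124, Gfap at 14.1 and Slc1a2 at 6.21. The last 4 were Aldh1l1 at 1.93, Aqp4 at 1.31, Gja1 at 0.909 and Slc1a3 at 0.224 CPM per kb. S100b came after Glul in the input, by the narrow gap of 404 to 421 CPM per kb, and before it in the IPs. Aldh1l1 was ahead of Aqp4 and Gja1 in the IPs and behind both in the input. The lengths join all annotated exons of a gene and need not be those of the transcripts present.

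A longer list of astrocyte genes, 35 in 3 groups, was read in the same way. All 13 genes of transport and ion balance were depleted, with a median log2 ratio of -3.69. All 11 genes of the cell surface, matrix and gene regulation were depleted, with a median of -3.27. Of 11 genes of metabolism and lipid carriage 7 were depleted and 4 were neither, with a median of -1.62. The background of depleted genes was 21.1%, as above.

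The lowest ratios of the 35 were those of Plpp3, a lipid phosphatase of the plasma membrane, at -5.56, the zinc transporter Slc39a12 at -5.21, and the GABA transporter Slc6a11 at -4.80. At the other end were Mt3, a metallothionein, at 0.55, the secreted chaperone Clu at 0.43 and the phospholipase Pla2g7 at -0.11. Mt3 was at 185 CPM in the input and averaged 271 ± 66.4 CPM over the IPs (SD, n = 18), and Clu at 591 and 795 ± 193 CPM. Like S100b, these 3 genes were neither depleted nor enriched. The fourth gene of metabolism that was neither, Ppp1r3c, had a ratio of -0.87 and is named here after its value was seen.

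Most defining genes of other cell types were depleted too. Of 7 oligodendrocyte genes 7 were depleted (median log2 ratio -3.46), and their summed level was 21300 CPM in the input, against 1540 to 2920 CPM across IPs. Microglia genes were depleted in 6 of 6 cases (median -3.86; 163 CPM in the input, 8.38 to 15.4 CPM in the IPs), endothelial genes in 4 of 4 (median -3.52) and oligodendrocyte precursor genes in 3 of 3 (median -3.25). Schwann cell genes were depleted in 3 of 4 cases (median -2.76; 1200 CPM in the input, 219 to 323 CPM in the IPs) and ependymal genes in 4 of 5 (median -3.61). The ependymal exception, Foxj1, had 721 counts in the input and a ratio of 0.45, with all 18 IPs above the input. The other ependymal genes had only 25 to 128 input counts. The ependymal sum was thus not depleted, at 51.5 CPM in the input and 40.7 to 68 CPM in the IPs. Neuron types other than the target had medians nearer to the input. Inhibitory neuron genes were depleted in 3 of 4 cases (median -1.78, with Gad1 the exception at -0.1) and excitatory neuron genes in 3 of 3 (median -2.06). No listed gene was at 0 in all IPs. All 8 members had a median of -3.99 and a summed level of 4890 CPM in the input, against 1190 to 1760 CPM across IPs. Without S100b and Glul, which had the highest ratios, the other 6 had a median of -4.34. Their summed level was 2880 CPM in the input, against 132 to 205 CPM across IPs. The lists of other cell types kept all their genes, so the median of -4.34 is not on the same footing as theirs. The part of any of these cell types in the level of S100b was not tested.

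**Figure D3:**
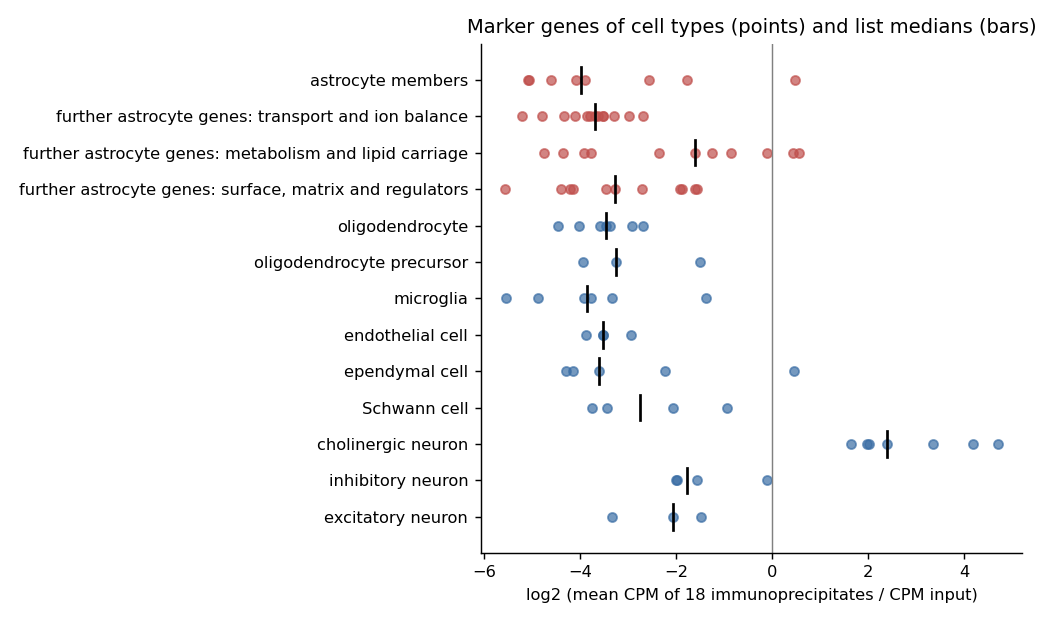
Log2 ratio of the mean CPM of the 18 IPs to the input CPM for each gene (points) of the astrocyte groups (red) and of other cell types (blue), with the median of each list (bars). Astrocyte medians lie between -3.99 and -1.62, the cholinergic neuron median at 2.39, and single astrocyte genes reach 0.47 (S100b) and 0.55 (Mt3).

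The time course was examined next. Low genes were left out, which kept 15572 genes and all 8 members. By JTK_Cycle, a rank test for rhythms of 20 to 28 h, 6 of all genes (0.0385%) and 0 of the members passed at an adjusted p of 0.05 over all genes. The count over all genes ranged from 0 to 752 when libraries or replicate numbers were left out, while that of the members stayed at 0. S100b had the lowest adjusted p among the members, 0.174 (JTK_Cycle, Benjamini-Hochberg). With the adjustment made within each gene alone, 15.8% of all genes and 2 members passed, S100b at 0.0181 and Glul at 0.0377 by its exact test. The best period for both was 20 h, the shortest of those tried, and not 24 h.

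The cosinor, which asks for a 24-h wave in an edgeR quasi-likelihood fit, called 6.24% of all genes and 1 member, S100b (adjusted p = 0.0468, log2 amplitude 0.25, fitted peak at ZT7.04). The test for any difference among the 6 time points, in the same tool, called 6.74% of all genes and again 1 member, S100b (adjusted p = 0.047). Unadjusted, 2 members, Gfap and S100b, had a p under 0.05 in each of these tests, beside 4153 of the 15572 genes in the cosinor and 3686 among time points. Of the 15 pairs of time points, S100b passed in 2, and 21.4% of all genes passed in at least 1.

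S100b stood at 663, 758 and 682 CPM at ZT0, at 870, 971 and 1020 CPM at ZT4 and at 819, 1230 and 1010 CPM at ZT8. It then stood at 918, 816 and 710 CPM at ZT12, at 709, 597 and 818 CPM at ZT16 and at 687, 755 and 881 CPM at ZT20. All 6 libraries of ZT4 and ZT8 were above all 6 of ZT0 and ZT16, a separation that 7.38% of all genes had in either direction. These are the highest and lowest time points of S100b itself, and the share applies that same grouping to every gene. The margin was narrow, 819 CPM in ZT8 replicate 1 against 818 CPM in ZT16 replicate 3. ZT12 replicate 1 (918 CPM) and ZT20 replicate 3 (881 CPM) lay within the range of ZT4 and ZT8. The group means were 701 ± 50.3 CPM at ZT0, 1020 ± 206 CPM at ZT8 and 708 ± 110 CPM at ZT16 (SD, n = 3).

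At ZT8, S100b was 0.56 ± 0.14 higher than at ZT0 on the log2 scale (SE; adjusted p = 0.0124, edgeR quasi-likelihood), in a comparison that called 18% of all genes, with 8.95% of all genes higher. At ZT16 it was lower than at ZT8 by 0.54 ± 0.14 (SE; adjusted p = 0.0154, edgeR), where 16.9% of all genes were called and 7.8% of all genes were lower. Both comparisons use the same ZT8 libraries. ZT20 against ZT8 called 0% of genes in edgeR. S100b there had a log2 difference of -0.40 ± 0.14 (SE; adjusted p = 0.111), 3474 genes including Gfap and S100b had an unadjusted p under 0.05, and DESeq2 called 1114 genes with 0 members among them.

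These calls of S100b were near the threshold and depended on single libraries. Leaving out 1 library at a time gave adjusted p-values of 0.00937 to 0.15 for the cosinor, and it passed without ZT8 replicate 1, ZT12 replicate 3, ZT16 replicate 3 or ZT20 replicate 3 only. The test among time points ranged from 0.00733 to 0.157 and was lost without any of 12 of the 18 libraries (all of ZT0, 2 and 3 of ZT4, 2 and 3 of ZT8, 2 of ZT12, and 1 and 2 of both ZT16 and ZT20). The difference between ZT8 and ZT0 was lost without ZT0 replicate 1 (edgeR adjusted p = 0.0638), ZT0 replicate 3 (0.0536) or ZT8 replicate 2 (0.111). That between ZT16 and ZT8 was lost without ZT8 replicate 2 (edgeR adjusted p = 0.129), ZT8 replicate 3 (0.0526), ZT16 replicate 1 (0.0607) or ZT16 replicate 2 (0.107). Without ZT8 replicate 1, S100b did pass in ZT20 against ZT8 (edgeR adjusted p = 0.0157). ZT8 replicate 2, the highest IP for S100b, is the library in which Chat was below its input level. Whether that low Chat level bears on these calls was not tested.

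S100b also moved with the main axis of variation among the IPs. The first principal component, oriented so that ZT8 lay high, held 52.8% of the variance of 9214 genes, and S100b had a Pearson r of 0.98 with it over the 18 IPs. S100b itself is measured in these libraries, and r is given as a description. The other members had r between -0.57 (Glul) and 0.05 (Aldh1l1), with Gfap at -0.45. Genes of the target cells moved along with time as well: of 7 cholinergic neuron genes, 4 were lower at ZT8 than at ZT0 and 5 higher at ZT16 than at ZT8 past the same threshold, beside 9.02% and 9.11% of all genes. Their summed level was 4660 ± 212 CPM at ZT0, 4430 ± 257 CPM at ZT8 and 4850 ± 213 CPM at ZT16 (SD, n = 3). The part of this axis in the time course of S100b was not tested.

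Gfap had a course of the opposite sign. It stood at 61.4, 60.5 and 72.3 CPM at ZT0, at 48.6, 41.5 and 54 CPM at ZT4 and at 47.4, 48.2 and 53 CPM at ZT8. Later values were 57.6, 72.6 and 71.4 CPM at ZT12, 64.4, 62.1 and 71.5 CPM at ZT16 and 46.9, 59.9 and 77.8 CPM at ZT20. The ZT8 libraries were all below those of ZT0 and of ZT16, which 34.7% and 27.1% of all genes also showed in either direction. None of these edgeR tests called Gfap: the adjusted p was 0.0842 in the cosinor (log2 amplitude 0.23), 0.0896 among time points, 0.0941 for ZT8 against ZT0 (log2 difference -0.37 ± 0.15, SE) and 0.071 for ZT16 against ZT8 (0.40 ± 0.15), all with edgeR. DESeq2 did call Gfap, in the cosinor (adjusted p = 0.0415) and among time points (0.0229). With the replicate number as a block, edgeR called it among time points (adjusted p = 0.0444), for ZT8 against ZT0 (0.0482) and for ZT16 against ZT8 (0.0332). Without the block it was just past the threshold among time points (edgeR adjusted p = 0.0482 and 0.0392) and for ZT16 against ZT8 (0.0417 and 0.038) without ZT20 replicate 1 or ZT20 replicate 3.

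Glul had a narrow range and, like Gfap, its lowest means at ZT4 and ZT8 (395 and 383 CPM). It stood at 423, 413 and 425 CPM at ZT0, at 373, 395 and 382 CPM at ZT8 and at 482, 430 and 407 CPM at ZT16. The ZT8 libraries did not overlap those of ZT0 or ZT16, as held for 34.7% and 27.1% of all genes. The log2 difference was -0.12 ± 0.08 for ZT8 against ZT0 (SE; edgeR adjusted p = 0.355) and 0.19 ± 0.08 for ZT16 against ZT8 (SE; edgeR adjusted p = 0.122).

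The other 5 members passed no test over time. Their group means ranged from 7.57 to 9.01 CPM for Aqp4, from 72.3 to 90.4 CPM for Slc1a2, from 1.31 to 2.62 CPM for Slc1a3, from 7.16 to 10.8 CPM for Aldh1l1 and from 8.01 to 10.3 CPM for Gja1. Slc1a3 had the largest fitted amplitude of all members, 0.46 on the log2 scale, with an adjusted p of 0.297 in the edgeR cosinor. Its ZT16 value was 0.98 ± 0.53 above ZT8 (SE; edgeR adjusted p = 0.212). The summed level of the 6 members without S100b and Glul was 178 ± 12 CPM at ZT0, 149 ± 16.6 CPM at ZT8 and 181 ± 21.1 CPM at ZT16 (SD, n = 3). The oligodendrocyte sum at these times was 2050 ± 203, 1870 ± 134 and 2290 ± 542 CPM, with 2920 CPM in ZT16 replicate 3.

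**Figure D4:**
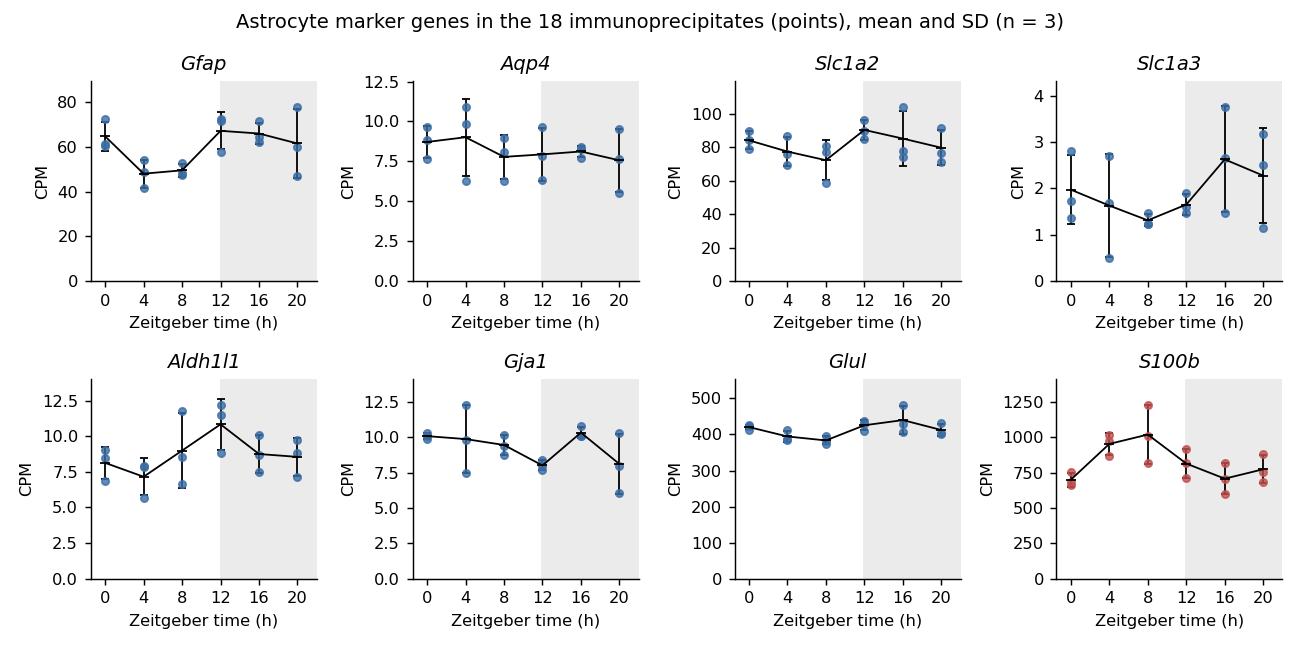
CPM of the 8 members by Zeitgeber time in h (points, 1 IP each; line and bars, mean and SD of 3), with the dark period shaded and a linear axis from 0. S100b (red, the member called over time) is highest at ZT4 and ZT8 with means of 955 and 1020 CPM, whereas Gfap is lowest there with means of 48 and 49.5 CPM.

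Members were also compared with each other from library to library. Over the 18 IPs, Pearson r of log2 CPM ranged from -0.46 (Glul and S100b) to 0.64 (Gfap and Slc1a2) across the 28 pairs of members, with a median of 0.08. Among the 15 pairs of the 6 members without S100b and Glul the median was 0.14. After the time point means were taken away the range was -0.46 to 0.66, with a median of 0.09 and Gfap and Aqp4 as the highest pair. These correlations share the libraries and their scaling, and for Aqp4, Slc1a3, Gja1 and Aldh1l1 also rest on few counts: counting alone gave coefficients of variation of 9.92%, 21.3%, 9.2% and 9.67%, beside observed ones of 17.7%, 43.7%, 16% and 20.5%.

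The 3 genes most like each member, by Pearson r of log2 CPM over the 18 IPs among 15571 others, were never other members. For S100b they were Cisd1, Trappc4 and Chmp4b, each with r = 0.99, and 582 genes (3.74%) had an r over 0.9 to it, while 493 had an r under -0.9. No gene reached 0.9 with any of the other 7 members. Gfap was most like Oas1b (0.81), the clock gene Per2 (0.79) and Zmynd19 (0.78). Slc1a2 was most like Psmd7, Cbr1 and Chmp2a (0.86 each), and Glul most like the tubulin gene Tuba1a (0.86), Map3k6 (0.84) and Mpv17l2 (0.82).

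The less abundant members were treated in the same way. Aldh1l1 was most like Sptbn4 (0.83) and Cinp (0.76), and Slc1a3 most like Peli2 (0.8), Agbl4 (0.79) and Gm52989 (0.77). Gja1 was most like Spink8 (0.74), Nmrk2 and Fzd6 (0.67 each), and Aqp4 most like Cdca8, Gm41510 and B3galnt1 (0.71 each). These are the highest values for each member among all genes compared, from 18 libraries.

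Of the longer astrocyte list, all 35 genes were tested over time. Of these, 2 were called by the cosinor, 8 among time points and 14 in at least 1 pair, beside backgrounds of 6.24%, 6.74% and 21.4% of all genes. The 8 were Slc6a11, Aldoc (an aldolase), Acsbg1 (an acyl-CoA synthetase), Pla2g7, Agt (angiotensinogen), Apoe (apolipoprotein E), Clu and Sparcl1 (a secreted matrix protein). All 8 were lower at ZT8 than at ZT0 and higher at ZT16 than at ZT8, past the threshold in both, with the ZT8 libraries in common. The 8 were picked by a test on the same libraries and fit, so these pair calls describe them and are no further support. The cosinor called Clu (edgeR adjusted p = 0.0377, log2 amplitude 0.39, peak at ZT19.2) and Sparcl1 (0.0428, 0.42, ZT19.6).

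Agt had the largest difference of them. It was at 9.34 ± 1.88 CPM at ZT0, 2.88 ± 1.04 CPM at ZT8 and 9.55 ± 0.873 CPM at ZT16 (SD, n = 3), a log2 difference of -1.68 ± 0.33 for ZT8 against ZT0 (SE; edgeR adjusted p = 0.00589). Clu stood at 967 ± 50.6 and 506 ± 131 CPM at ZT0 and ZT8 (log2 difference -0.92 ± 0.16; edgeR adjusted p = 0.00519), and Slc6a11 at 17.9 ± 0.784 and 9.64 ± 3.12 CPM (-0.88 ± 0.20; 0.00858). The opposite direction was taken by the 3 metallothionein genes, Mt1, Mt2 and Mt3, which were higher at ZT8 than at ZT0 by 0.80, 0.87 and 0.70 on the log2 scale and are named after their values were seen. In ZT8 against ZT0, 9 of the 35 were lower and 3 higher (9.02% and 8.95% of all genes), and in ZT16 against ZT8, 11 were higher and 0 lower (9.11% and 7.8% of all genes).

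These counts too depended on single libraries. Without ZT8 replicate 2 the genes of the longer list called in at least 1 pair went from 14 to 3, and without ZT8 replicate 3 to 8, while over all genes the count went from 3332 to 440 and 1356. Those called among time points went from 8 to 1 and 0, to 2 without ZT0 replicate 1, ZT0 replicate 3, ZT4 replicate 2 or ZT16 replicate 1, to 4 without ZT16 replicate 2, ZT20 replicate 1 or ZT20 replicate 2, and to 5 without ZT12 replicate 2. The 2 genes called by the cosinor went to 0 without ZT0 replicate 2, ZT4 replicate 2 or 3, ZT8 replicate 2 or 3, ZT12 replicate 1, ZT16 replicate 1 or 2, or ZT20 replicate 1, and to 1 without ZT0 replicate 3. Their number was 4 without ZT20 replicate 2, 6 without ZT16 replicate 3, 7 without ZT12 replicate 3 and 11 without ZT20 replicate 3. The summed level of the 35 genes was 4100 ± 219 CPM at ZT0, 3120 ± 253 CPM at ZT8 and 4100 ± 195 CPM at ZT16 (SD, n = 3).

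**Figure D5:**
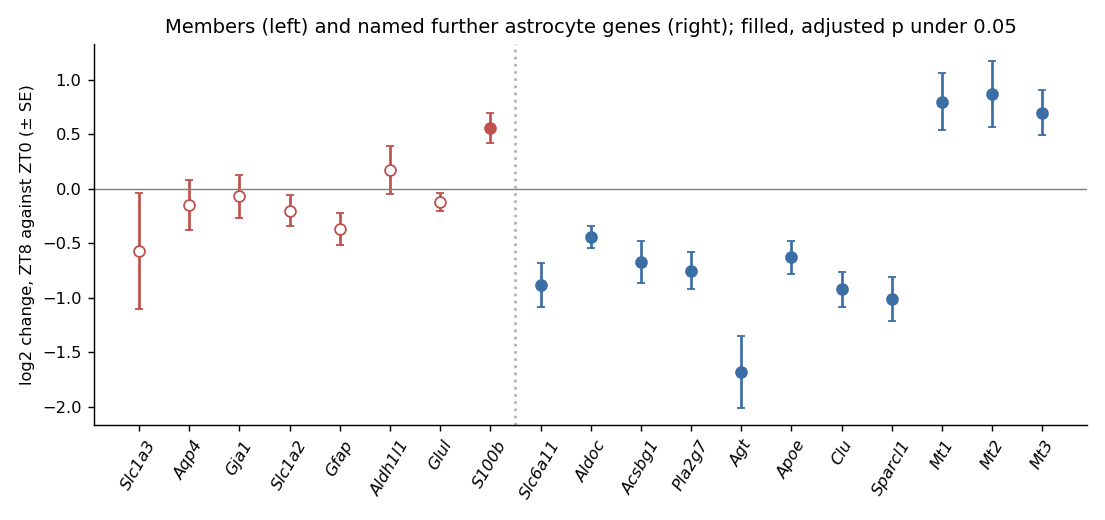
Log2 change from ZT0 to ZT8 with its SE for the 8 members (red) and the named genes of the longer astrocyte list (blue), with filled points where the edgeR adjusted p was under 0.05. S100b, at 0.56, is the filled member; 8 named genes lie below 0, down to -1.68 for Agt, and the 3 metallothionein genes lie above it.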

How the data were processed

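Polyadenylated RNA of 18 HA IPs and 1 pooled input was sequenced from stranded libraries. Per the labels and the study's methods, the authors aligned reads to mm10 with STAR 2.7.5 and deposited RSEM expected counts per gene (1.9 to 3.68% of values not whole), rounded here to whole numbers. RSEM shares reads between similar genes by estimate. No value column lacked a sample.

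CPM were scaled by TMM over the 19 libraries. Genes with at least 10 counts were compared with the input. Over time, genes kept by filterByExpr were tested in the IPs with edgeR 4.0.16 (R 4.3.3; quasi-likelihood, Benjamini-Hochberg at 0.05) and JTK_Cycle with periods of 20, 24 and 28 h; the scripts were tested on simulated data. DESeq2 1.42.0 served as an alternative. Gene positions are RefSeq, exon lengths GENCODE. The common biological coefficient of variation was 19.2%.

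Members and gene lists were chosen with earlier results of these data known. Named were the 8 members, the 3 highest and 3 lowest input ratios of the longer list among genes with at least 100 input counts, those passing the cosinor or time point test, and the 3 genes most like each member, of which 1 is not reported here. Intervals cover counting error only.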

Additional observations from a re-analysis of the deposited data

How the results depend on the processing

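The 7 depleted members stayed the same 7 by library totals, by DESeq2 size factors, with a minimum of 1 count and without any replicate number (7 to 7); at 4-fold Glul left and 6 remained. By library totals the log2 ratios were -4.22 for Gfap, -5.40 for Aqp4, -4.40 for Slc1a2, -2.89 for Aldh1l1, -4.93 for Gja1, -2.09 for Glul and 0.14 for S100b. The 4-fold rule called 2557 of all genes depleted in place of 4465. Over time, 1 member was called by the cosinor; the number was 0 by library totals, 2 with a minimum of 1 count and 2 by DESeq2, Gfap joining S100b. Among time points it was 1, and 2 with a minimum of 1 count or by DESeq2. That minimum also gave 1 member in ZT20 against ZT8 in place of 0, and 2 in any pair in place of 1. JTK_Cycle adjusted within the gene alone gave 2 members in place of 0. Without single libraries or replicate numbers the counts of members ranged from 0 to 1 for the cosinor, 0 to 2 among time points, 0 to 1 in ZT20 against ZT8, 0 to 2 in any pair and 0 to 0 for JTK_Cycle. Without all libraries of replicate 2, S100b had an adjusted p of 0.14 for ZT8 against ZT0 and 0.56 for ZT16 against ZT8 (edgeR). Beyond fewer samples, the cause of these changes was not tested. No pairing of libraries by replicate number was seen in correlations of deviations over all genes tested. These were -0.151 to 0.176 for the same number (4 of 45 over 0.1) and -0.21 to 0.183 for different numbers (9 of 90). An effect of the replicate number on single genes was not tested by this. With the replicate block the cosinor called 0 members (S100b at 0.052), the time point test called Gfap (0.0444) and not S100b (0.0549), and any pair called 2, Gfap and S100b (edgeR adjusted p). Over all genes tested, the block gave 356 JTK_Cycle calls in place of 6, a minimum of 1 count gave 2349 cosinor calls, 2767 among time points and 1641 in ZT20 against ZT8, and DESeq2 gave 2247, 2502 and 1114, in place of 972, 1050 and 0. Genes with under 100 counts per IP, such as Slc1a3, are limited by depth.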
